A study of Mus musculus with 6 samples.

Results

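Of 45281 probes on the array, 66 carry the symbol of a keratin gene, meaning Krt followed by a number and at most 1 letter, and they cover 49 genes. The members were chosen by symbol, and the keratin-associated Krtap genes were left out. The family was singled out with earlier results for Krt79, Krt17 and Krt42 in this same comparison known, so the values of these 3 genes are a description and support nothing else. Of the 49 genes, 26 encode type I and 23 encode type II keratins, and 37 have 1 probe, 7 have 2 and 5 have 3.

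Whole testis pairs of mouse fetuses at embryonic day 14.5 were profiled, on a mixed B6/CD1 background. The 3 overexpressors were Amh-cre;RosaNICD/+, in which the Amh-cre transgene recombines in Sertoli cells and so switches on 1 Rosa26 copy of the NOTCH1 intracellular domain. The 3 controls were RosaNICD/+ littermates without Amh-cre, so they also carried the conditional allele, and each of 3 dams gave 1 fetus of each genotype. Amh-cre was present only in overexpressors, and its own effect cannot be told apart from that of active NOTCH1. Each sample was hybridised to 1 Illumina BeadChip array.

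Keratins build the intermediate filaments of epithelial cells. A filament needs a type I and a type II chain, and cells express them in partner sets, such as Krt8 with Krt18 in simple epithelia, Krt5 with Krt14 in the basal layer of stratified epithelia and Krt1 with Krt10 above it. Most type I genes form 1 cluster and the type II genes another, with the type I gene Krt18 beside Krt8 in the type II cluster. In the testis, Krt8 and Krt18 are known from fetal Sertoli cells, while most other members belong to skin, hair and lining epithelia.

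The promoters of Krt79, Krt42 and Krt8 are shown because Krt79 rose and Krt42 fell while Krt8 did not pass the test. Each line gives the 250 bases before the annotated start in RefSeq's promoter table for GRCm38.p6, on the gene's strand and 5′ to 3′. Capitals mark the letters TGGGAA or its reverse complement, the core that RBPJ, the DNA-binding partner of NOTCH1, is known to bind.
Krt79, chr15:101940325-101940574, minus strand: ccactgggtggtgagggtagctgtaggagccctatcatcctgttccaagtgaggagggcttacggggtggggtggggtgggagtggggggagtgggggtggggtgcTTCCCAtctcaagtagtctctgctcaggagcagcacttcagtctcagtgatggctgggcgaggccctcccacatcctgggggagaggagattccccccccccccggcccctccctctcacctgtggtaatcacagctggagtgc
Krt42, chr11:100269952-100270201, minus strand: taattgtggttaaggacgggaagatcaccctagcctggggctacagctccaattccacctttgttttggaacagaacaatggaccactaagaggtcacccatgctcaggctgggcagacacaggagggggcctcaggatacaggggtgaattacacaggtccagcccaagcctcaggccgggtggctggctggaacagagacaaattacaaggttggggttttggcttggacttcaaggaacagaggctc
Krt8, chr15:102004343-102004592, minus strand: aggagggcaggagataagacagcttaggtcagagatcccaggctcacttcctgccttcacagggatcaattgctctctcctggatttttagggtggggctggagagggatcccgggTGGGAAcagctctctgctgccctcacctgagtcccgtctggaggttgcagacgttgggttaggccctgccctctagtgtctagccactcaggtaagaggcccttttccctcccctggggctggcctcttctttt
The letters begin 144 bases before the start in Krt79, on the opposite strand, and 134 bases before it in Krt8, on the gene's own strand. They are not in this window of Krt42. Of 34 keratin genes with a promoter in that table, 7 (20.6%) hold TGGGAA on either strand, against 21.6% of all 32851 promoters. Each keratin gene was counted once in these shares, while the 32851 are all entries, where a gene can have several. Krt17 is not among the 34.

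The 3 motifs searched, each on both strands, were TGGGAA, the E-box CACGTG, which HES and HEY repressors are known to bind, and the TATA box TATAAA. The E-box occurred in 3 keratin promoters (8.82%), against 6.02% of all. TATAAA occurred in 16 keratin promoters (47.1%), against 12.4% of all, and in 11 of the 34 it began 25 to 31 bases before the start. It was in none of the 3 sequences shown. Among the 12 keratin promoters whose gene was measurable here, 4 hold TATAAA, and among the other 22, 12 do. A match of letters is a description and shows no binding.

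Most of the family was not above background in these testes. Of the 66 probes, 41 had a detection p of at least 0.05 on every array, 8 were above background on 1 or 2 arrays, 9 on 3 to 5 and 8 on all 6. For 27 of the 49 genes no probe was above background on any array. A probe was tested when it was above background on at least 3 arrays, which left 17 probes of 16 genes, 25.8% of the keratin probes against 43.9% of all probes. A gene expressed in 1 group alone could pass this filter only through that group. The 41 probes had normalized log2 intensities from 4.23 to 4.87, and the lowest level of any probe above background was 4.91 to 4.99 across the arrays.

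**Figure D1:**
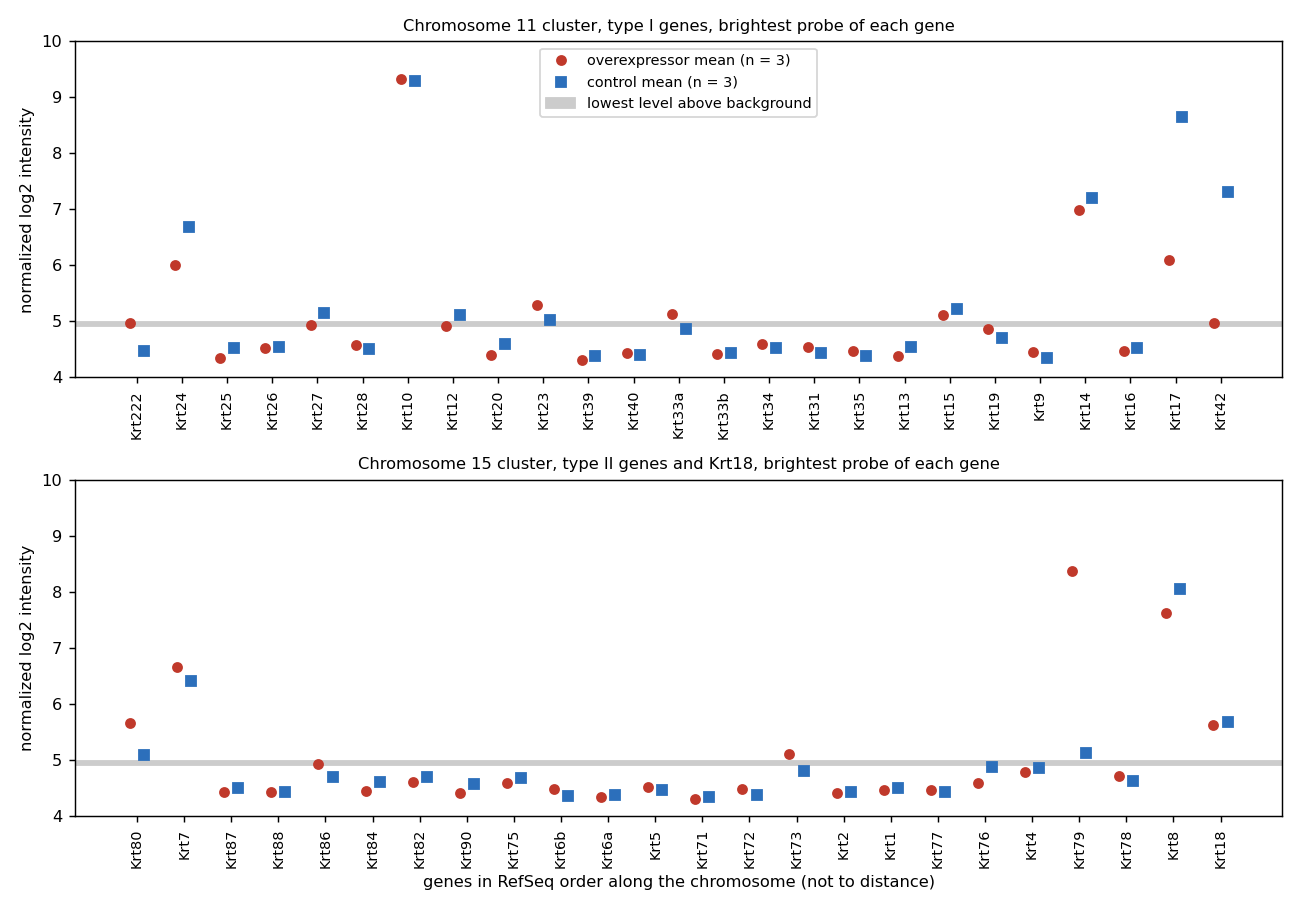
Mean normalized log2 intensity of the brightest probe of each keratin gene, in the order of the genes along chromosomes 11 and 15 with no scale of distance, for overexpressors (red circles, n = 3) and controls (blue squares, n = 3). The grey band is the lowest level above background (4.91 to 4.99). Most genes lie below it in both groups, and the widest gaps between groups are those of Krt79, Krt17 and Krt42.

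Across the whole array 113 of 19889 tested probes (0.568%) passed limma's moderated test after Benjamini-Hochberg adjustment at 0.05. Probes that passed and were higher in overexpressors made up 0.407% of those tested, and probes that passed and were lower 0.161%. Of the 17 keratin probes 4 passed: 1 probe of Krt79 was higher, and 1 probe of Krt17 and 2 of Krt42 were lower. Nothing is read from this count, since the family was chosen with these calls known. With the dam as a block the same count was 4 of 17, against 0.789% of all probes. Groups did not overlap in 5 of the 17 probes, against 14.6% of all tested probes: 2 were higher in overexpressors, against 7.57%, and 3 lower, against 7.01%. The median log2 fold change of the 17 was -0.11, and that of all tested probes was -0.0033. The median size of the change, without its sign, was 0.28 in the 17 and 0.14 in all tested probes. The 4 probes known beforehand enter these shares and medians too, so nothing is read from them. Of the 13 keratin probes that did not pass, 1 had groups that did not overlap.

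Krt79, a type II keratin known from the upper hair follicle and the ducts of sebaceous glands, had the largest difference of the family. Its raw signals were 498.8, 385.5 and 407.3 in overexpressors 1 to 3, against 127.6, 116.1 and 111.3 in controls 1 to 3. The standard error over beads was 18.1 to 20.7 in overexpressors and 5.82 to 5.98 in controls. All overexpressors lay far above all controls, and every array detected the probe.

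The Krt79 controls lay close to the edge of detection, with detection p-values of 0.0203, 0.0289 and 0.0256. The lowest signal above background on those arrays was 121.4, 113.3 and 107.2. After background correction and normalization the log2 intensities were 8.39, 8.27 and 8.50 in overexpressors and 5.20, 5.04 and 5.16 in controls. The groups averaged 8.39 ± 0.12 in overexpressors and 5.13 ± 0.086 in controls (SD, n = 3 each).

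Within dams 1 to 3 the Krt79 difference was 3.19, 3.23 and 3.34 on the log2 scale, so the litters were alike. The fitted log2 fold change was 3.25 ± 0.13 (SE), a 9.52-fold rise, with an adjusted p of 7.41e-05 in limma. The raw signals, which include the background, gave ratios of 3.91, 3.32 and 3.66 within the dams. Without background correction the log2 fold change was 1.80 (adjusted p = 5.8e-05), so the size of the rise depends on that step and the call does not. Under all 14 alternatives it lay between 1.77 and 3.31 and passed.

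**Figure D2:**
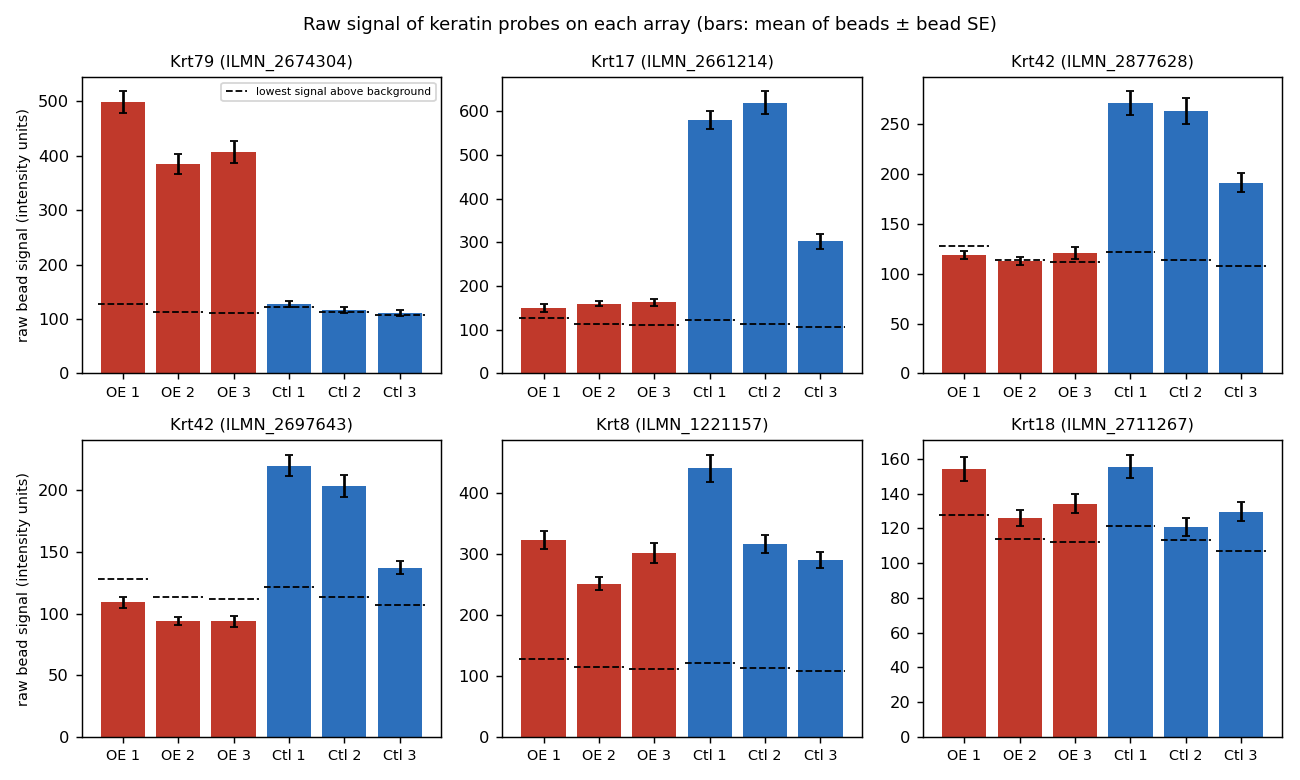
Raw bead signal (intensity units, bars from 0) of 6 keratin probes on each array, overexpressors (OE, red) left of controls (Ctl, blue); error bars are the standard error over beads and dashed lines the lowest signal above background on that array. Krt79 reaches 385.5 to 498.8 in overexpressors, Krt17 and the Krt42 probes are high only in controls, and the groups overlap for Krt8 and Krt18.

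Krt17, a type I keratin of hair follicles and of epithelium under stress or repair, fell in overexpressors. Its raw signals were 150.4, 159.6 and 163.3 in overexpressors and 579.7, 619.5 and 302.7 in controls. Control 3 was well below the other 2 controls and still above every overexpressor. The log2 intensities were 5.55, 6.24 and 6.50 in overexpressors, against 8.80, 9.11 and 8.04 in controls, and all 6 arrays detected the probe.

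The difference for Krt17 was -3.25, -2.87 and -1.54 in dams 1 to 3, smallest in dam 3. The fitted log2 fold change was -2.55 ± 0.32 (SE), or 5.86-fold lower in overexpressors, with an adjusted p of 0.012 in limma. It did not pass when dim probes were kept in the fit (adjusted p = 0.0714), without overexpressor 1 (log2 fold change -2.28, adjusted p = 0.0562) and without control 1 (-2.47, adjusted p = 0.0689). Without background correction it stood at -1.66 (adjusted p = 0.00618). The standard deviations of 0.49 in overexpressors and 0.55 in controls were wide beside those of Krt79.

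Krt42, a type I keratin that RefSeq also lists under the name ecat6, lies next to Krt17 and has 3 probes. The probe ILMN_2877628 had log2 intensities of 4.64, 4.89 and 5.40 in overexpressors, against 7.36, 7.53 and 7.05 in controls. It was above background on 1 of 3 overexpressor arrays and all 3 control arrays. The groups lay far apart, and the fitted log2 fold change was -2.34 ± 0.22 (SE, adjusted p = 0.00455 in limma). Its size depends on signals near background in overexpressors, and without background correction it was -1.08 (adjusted p = 0.00207).

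The probe ILMN_2697643 had raw signals of 109.3, 93.9 and 93.6 in overexpressors and 220.2, 203.6 and 137.1 in controls. It was above background on 0 overexpressor and 3 control arrays, so it entered the test through controls alone and its fold is a bound. Against the higher of its own signal and the lowest level above background, the mean of Krt42 was at least 3.24-fold lower in overexpressors by this probe. This bound is on the group means and need not hold in each dam. The measured difference, without the bound, had an adjusted p of 0.00596 in limma. The bound without background correction was 1.62-fold. Its measured means were 4.39 ± 0.042 in overexpressors and 6.64 ± 0.50 in controls (SD, n = 3 each). The third probe, ILMN_2701160, was above background on 1 control array alone and was not tested.

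Within dams, both arrays were above background for Krt42 only in dam 3 with ILMN_2877628, where the difference was -1.65. In the other dams, and for ILMN_2697643 in all 3, the overexpressor was not above background and no size is given. Control 3 was the lowest of the controls for both probes, as for Krt17. Overexpressor 3 was the highest of its group for Krt17 and for ILMN_2877628. For Krt79 dam 3 showed the largest of its 3 differences. Krt17 and Krt42 are related in sequence, and whether their probes share signal was not tested, since probe sequences were not used here.

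**Figure D3:**
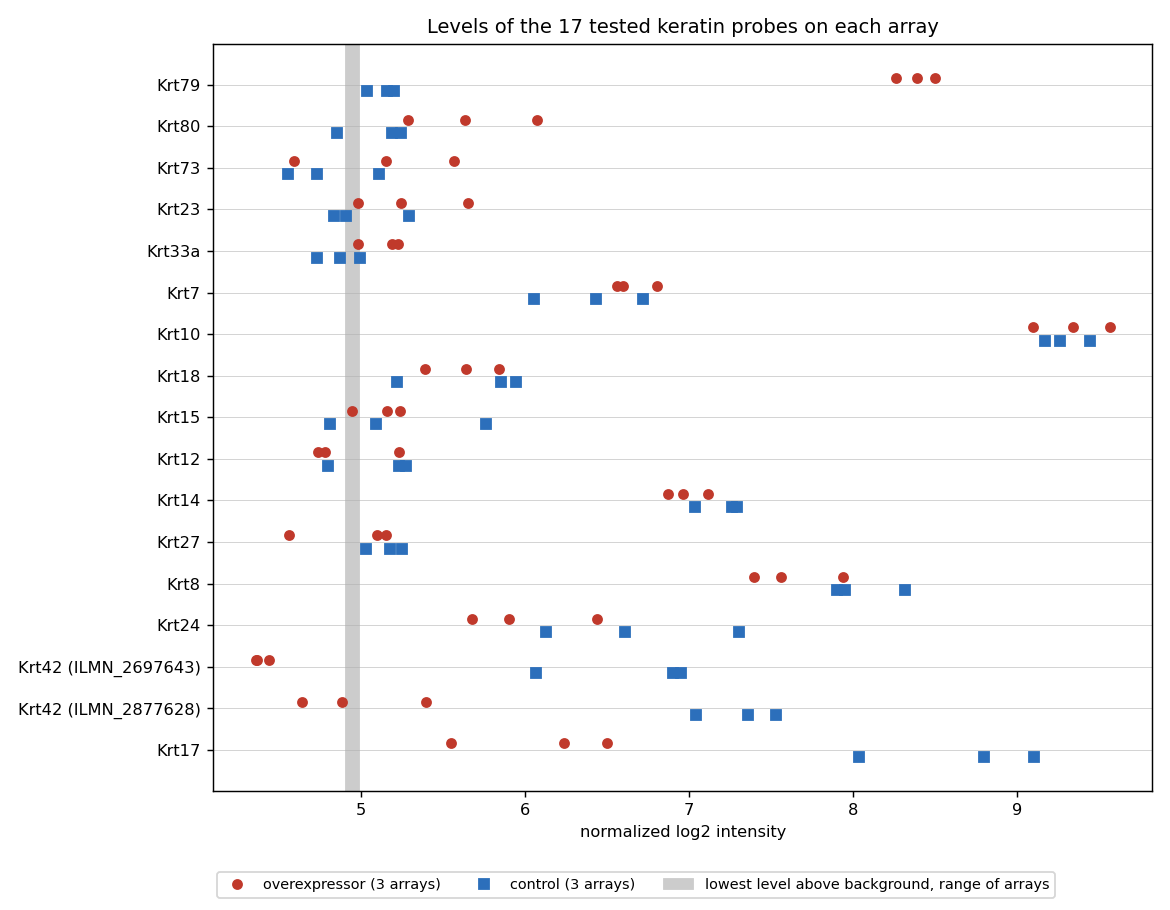
Normalized log2 intensity of each of the 17 tested keratin probes on every array, with overexpressors (red circles) drawn above controls (blue squares) in each row and rows sorted by log2 fold change. The grey band spans the lowest level above background on the arrays (4.91 to 4.99). Krt79, Krt17 and both Krt42 probes separate the groups widely, and Krt80 narrowly.

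Of the keratins of simple epithelia, Krt7, Krt8 and Krt18 were measurable on all 6 arrays, and none of these 3 passed the test. Krt8, the type II chain of single-layered epithelia, had log2 intensities of 7.56, 7.40 and 7.94 in overexpressors, against 8.32, 7.90 and 7.96 in controls. Overexpressor 3 lay between controls, so the groups overlapped. Its log2 fold change was -0.43 ± 0.19 (SE), lower in 3 of 3 dams, with a 95% interval from -0.85 to -0.0040 before adjustment and an adjusted p of 0.522 in limma. A second Krt8 probe was above background on 0 arrays.

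Krt18, the type I partner of Krt8, had log2 intensities of 5.64, 5.40 and 5.85 in overexpressors, against 5.94, 5.22 and 5.86 in controls. The groups overlapped throughout, at a log2 fold change of -0.047 (95% interval -0.54 to 0.45). Its sign turned when overexpressor 2, control 1 or control 3 was left out. Krt7, a type II keratin of ducts and glands, had 6.60, 6.57 and 6.81 in overexpressors and 6.44, 6.06 and 6.72 in controls. Control 3 lay among the overexpressors. Krt7 was higher in 3 of 3 dams, at 0.25 ± 0.19 (SE, adjusted p = 0.737 in limma). Krt19, which marks simple and ductal epithelium, was above background on 1 array of each group, and Krt20 of the gut lining on 1 control array.

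Among keratins of stratified epithelia, the type I chains Krt10 and Krt14 were measurable and their type II partners Krt1 and Krt5 were not. Krt10, the type I chain of the suprabasal epidermis, had log2 intensities of 9.34, 9.10 and 9.57 in overexpressors, against 9.45, 9.17 and 9.27 in controls. The groups overlapped, at a log2 fold change of 0.040 (95% interval -0.33 to 0.41), and all 6 arrays detected the probe. The probe of Krt1 was above background on 0 arrays. The sign for Krt10 turned without overexpressor 3 or control 2.

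Krt14, the type I chain of basal cells, had 6.96, 7.12 and 6.87 in overexpressors and 7.27, 7.04 and 7.29 in controls. The groups overlapped, and it was lower in 2 of 3 dams, at a log2 fold change of -0.22 ± 0.14 (SE, adjusted p = 0.69 in limma). Its partner Krt5 was above background on 0 arrays, as were the 2 probes each of Krt6a and Krt6b, the inducible type II chains that pair with Krt16 and Krt17. Krt15, another basal type I keratin, stood at -0.11 ± 0.24 (SE), and its sign turned without control 3, the highest array at 5.77. A probe below background does not show that a transcript is absent.

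Krt24, a type I keratin, had log2 intensities of 5.91, 6.44 and 5.68 in overexpressors, against 6.61, 7.31 and 6.13 in controls. Dam 2 gave the highest value and dam 3 the lowest value in both groups. The overexpressor was lower in each dam, by 0.71, 0.87 and 0.45, while the groups overlapped. The log2 fold change was -0.68 ± 0.31 (SE) with an adjusted p of 0.545 in limma; the block on dam gave 0.102. It was the lowest value among the probes that did not pass.

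Krt80, a type II keratin, was the highest among them. One of its 3 probes was measurable, with log2 intensities of 5.64, 5.29 and 6.08 in overexpressors, against 5.24, 5.19 and 4.86 in controls. The groups did not overlap, although overexpressor 2 and control 1 differed by little. The log2 fold change was 0.57 ± 0.21 (SE) with an adjusted p of 0.447 in limma, and the other 2 probes were above background on 0 arrays. The difference was 0.39 and 0.098 in dams 1 and 2, and in dam 3 the control was not above background.

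Hair and hair-sheath keratins were mostly below background, with 21 of their 25 probes above it on 0 arrays. Krt27 and Krt73 of the inner root sheath stood at -0.22 ± 0.18 and 0.31 ± 0.25 (SE), and Krt33a of the hair shaft at 0.27 ± 0.14. Krt23, a type I keratin, stood at 0.28 ± 0.20, and Krt12, known from the corneal epithelium, at -0.18 ± 0.19. Each of these 5 was below background on at least 1 array, and none passed. Krt33a and Krt23 were higher in 3 of 3 dams, and Krt12 was lower in 3 of 3. For Krt12 and Krt23, however, neither array of dam 3 was above background. For Krt33a, controls 2 and 3 were not above it, so these signs are not sizes.

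Of the 13 tested keratin probes that did not pass, 6 were higher and 7 lower in overexpressors. By dam, 4 were higher in all 3, 3 were lower in all 3 and 6 were mixed. No share over all tested probes stands beside this count and some signs come from arrays below background, so nothing is read from it. The log2 fold changes of the 13 lay within 0.68 of 0, with adjusted p-values from 0.447 to 0.967 in limma. Under the block on dam the adjusted p-values ran from 0.102 to 0.918. The 8 probes above background on 1 or 2 arrays, for Krt4, Krt12, Krt19, Krt20, Krt42, Krt76, Krt86 and Krt222, ranged from 4.27 to 5.60 in log2 intensity.

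**Figure D4:**
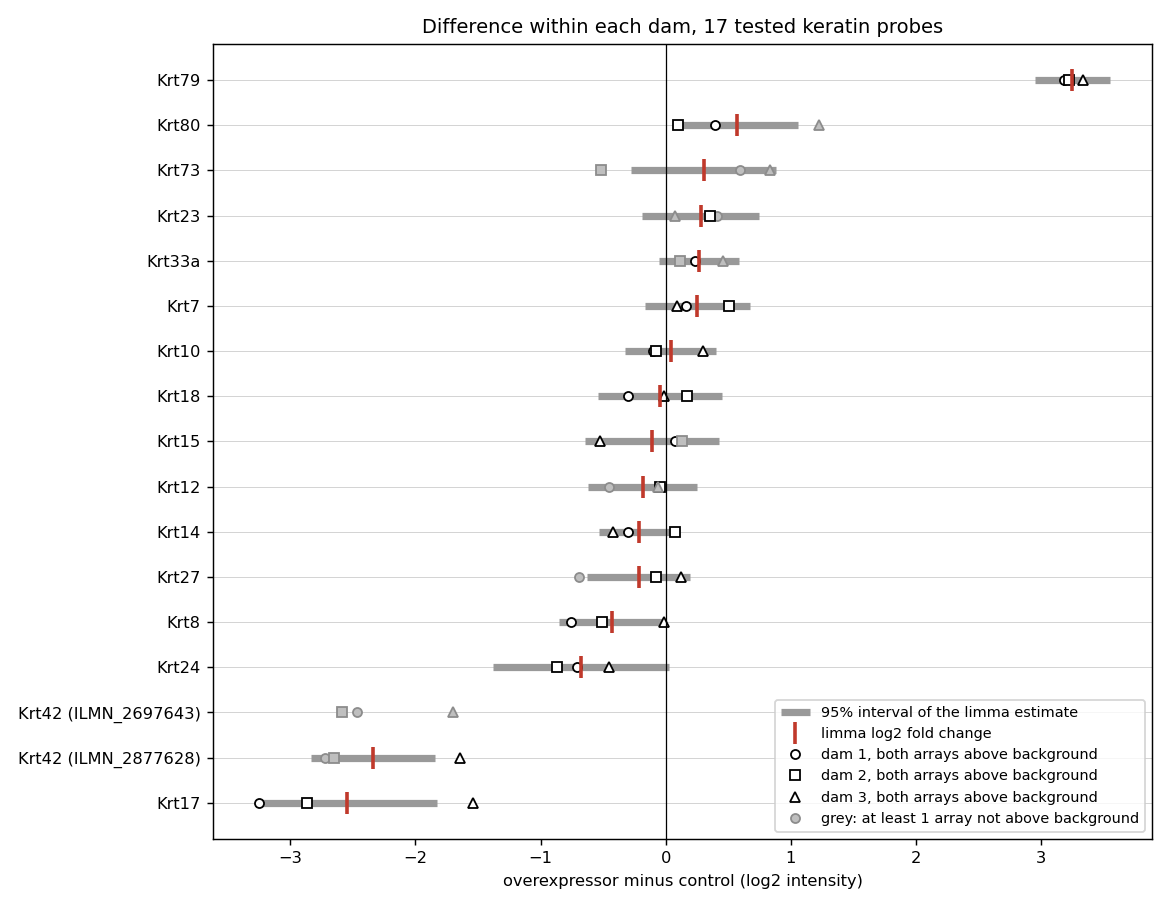
Overexpressor minus control log2 intensity of the 17 tested keratin probes in each dam, with the limma log2 fold change (red tick) and its 95% interval (grey bar); 0 means no difference. Open symbols have both arrays above background, filled grey symbols do not and are not sizes, and ILMN_2697643 of Krt42 has no tick or bar because no overexpressor was above background. The dams lie close together for Krt79 (3.19 to 3.34), dam 3 gives the smallest difference for Krt17, and most other rows lie around 0.

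Position in the clusters was examined after these values were seen. Krt17 and Krt42 are neighbours at the end of the chromosome 11 cluster, and they fell together. Of the 12 protein-coding genes within 6 places of Krt17, 5 were tested, and Krt42 was the only 1 of these that passed. The keratin neighbours Krt14 (-0.22 ± 0.14) and Krt15 (-0.11 ± 0.24) did not pass, nor did Hap1 (-0.24 ± 0.23) and P3h4 (-0.22 ± 0.21) beyond the cluster. Krt16, which lies directly beside Krt17, was above background on 0 arrays.

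Krt79 lies between Krt4 and Krt78 in the chromosome 15 cluster. Krt4 was above background on 2 arrays and the 3 probes of Krt78 on 0. Of the 12 genes within 6 places 6 were tested and 0 passed in limma, among them Krt8, Krt18 and Krt73. The 2 probes of Eif4b, a translation factor gene next to Krt18, disagreed in sign, at 0.35 ± 0.20 and -0.73 ± 0.32, and neither passed.

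Genes that work with keratins were read from lists, 1 probe per gene, beside a median log2 fold change of -0.0032 over all 10999 genes tested. Counts under an unadjusted p of 0.05, and counts of higher or lower genes, have no share over all tested genes beside them. Nothing is read from such counts in these lists or in the marker lists below. Desmosomes anchor keratin filaments at cell contacts. Of 15 desmosome genes with a probe 3 were tested and 0 passed in limma (0 at an unadjusted p under 0.05), with Pkp2 at -0.44 ± 0.22, Dsg2 at 0.11 ± 0.21 and Pkp4 at -0.053 ± 0.13. For 11 of the 15, among them Jup, Pkp1 and Dsg3, no probe was above background on any array. The median was -0.053.

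Of 12 keratin linkers and hemidesmosome genes 11 were tested and 0 passed in limma (3 at an unadjusted p under 0.05), 4 being higher and 7 lower, with a median of -0.029. The lowest unadjusted p-values belonged to Tchp, which encodes the keratin-binding protein trichoplein, at -0.44 ± 0.12, to Dst at -0.61 ± 0.18 and to Itga6 at -0.61 ± 0.18. Of 10 tested genes of other intermediate filaments 0 passed in limma (0 unadjusted), with a median of 0.062. Iffo1 (0.48 ± 0.23), the lamin gene Lmnb2 (0.21 ± 0.12) and the synemin gene Synm (-0.18 ± 0.14) led that list.

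Epidermal differentiation genes were mostly unmeasured, with 11 of 20 above background on 0 arrays. The 3 that were tested did not pass, and these were Lor at 0.49 ± 0.27, Cdsn at -0.27 ± 0.22 and Sbsn at 0.066 ± 0.18. Of 10 tested regulators of epithelial and keratin expression 0 passed in limma without the dam in the fit (3 unadjusted) and 1 fell with it, and the median was -0.25. That 1 was Esrp1, which encodes an epithelial splicing factor, at -0.81 ± 0.15 (adjusted p = 0.0687 in limma, and 0.0473 with the dam as a block). Klf4 stood at -0.47 ± 0.14. Esrp2 was above background on 0 overexpressor and 3 control arrays, with means of 4.53 in overexpressors and 5.17 in controls. By these group means it was at least 1.16-fold lower, a bound, and the measured difference did not pass (adjusted p = 0.162 in limma). Trp63, the master regulator of stratified epithelium, was above background on 0 arrays.

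Most markers of the main testis cell types were above background, and some differed between overexpressors and controls. In bulk tissue, fewer cells of a type and less RNA per cell cannot be told apart. Of 16 fetal Sertoli genes 14 had a probe, each above background on at least 1 array, and their summed intensity was 35337 to 39836 in overexpressors and 25409 to 29441 in controls. Cst9, a cystatin gene of Sertoli cells, rose by 0.83 ± 0.13 and Cbln4 fell, at -1.20 ± 0.20 (adjusted p = 0.0358 and 0.0474 in limma), and 12 did not pass. Of the 14, 7 were higher and 7 lower. The 2 brightest, Cst9 and Aard, averaged 13.88 and 13.77 in overexpressors, against 13.06 and 13.33 in controls. Without these 2 the sum was 6887 to 9887 in overexpressors and 7896 to 10161 in controls, so the groups overlapped. Amh, the hormone gene whose promoter drives the Cre, stood at -1.24 ± 0.38 (adjusted p = 0.32 in limma). The part of these shifts in the keratin values was not tested.

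Germ cell markers summed to 6928 to 12480 in overexpressors and 9800 to 15788 in controls, so the groups overlapped. Of 11 tested genes 2 were higher and 9 lower, 0 passed in limma (5 at an unadjusted p under 0.05), and the median was -0.57. No share over all tested genes stands beside the counts by sign or unadjusted p, so nothing is read from them. With the dam as a block 2 fell, Nanos2, a male germ cell gene, and Dnd1, an RNA-binding protein gene of germ cells. Nanos2 stood at -2.45 ± 0.45 (adjusted p = 0.0681 in limma, and 0.0142 with the block) and Dnd1 at -1.06 ± 0.24 (0.167, and 0.0445 with the block). Stra8, a gene of entry into meiosis, was above background on 3 overexpressor and 0 control arrays. Its log2 intensities were 8.58, 9.52 and 6.38 in overexpressors 1 to 3. The means were 8.16 ± 1.61 in overexpressors and 4.53 ± 0.20 in controls (SD, n = 3 each). By these group means Stra8 was at least 9.20-fold higher, a bound that need not hold in each dam. The measured difference did not pass (adjusted p = 0.0655 in limma, and 0.0593 with the block). Kit, a receptor gene of germ cells, stood at 0.73 ± 0.19. Dazl and Ddx4, general germ cell genes, stood at -0.053 ± 0.26 and -0.24 ± 0.28. Mael and Sycp3 were above background on 0 arrays. Whether germ cells contributed to the fall of Krt17 and Krt42 was not tested.

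Epithelial markers of the mesonephros, the tissue next to the testis, summed to 698 to 828 in overexpressors and 1217 to 1421 in controls, and the groups did not overlap. Brightest in controls among those tested were Lhx1, Ret and Cdh1, with log2 means of 8.96, 7.99 and 7.76. In overexpressors these were 7.58, 6.09 and 6.84. A linear sum weighs bright genes most, and the sum without these genes was not taken. Of 13 genes with a probe 7 were tested, 2 higher and 5 lower with a median of -0.029, and 1 fell, the GDNF receptor gene Ret (-1.90 ± 0.29, adjusted p = 0.0342 in limma). Cdh1 (-0.93 ± 0.17) and Lhx1 (-1.38 ± 0.31) did not pass, nor did the higher Cldn7 (0.22 ± 0.17) and Mal (0.15 ± 0.16). The defining markers Epcam, Cldn3, Emx2 and Gata3 were above background on 0 arrays, while Pax8 stood at -0.029 ± 0.28 and Cdh16 at -0.024 ± 0.29, each above background on 1 of 3 overexpressor arrays. The part of such tissue in the keratin values was not tested.

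Mesothelial genes, which cover the surface of the gonad, summed to 1436 to 1844 in overexpressors and 1221 to 1641 in controls. Of 7 tested 6 were higher and 1 lower, with a median of 0.30, and 0 passed in limma (2 at an unadjusted p under 0.05). Lgr5 stood at -1.05 ± 0.22, Aldh1a2 at 0.66 ± 0.15 and Upk3b at 0.39 ± 0.19, and Msln was above background on 0 arrays. Among 6 fetal Leydig cell, 7 interstitial and myoid, 6 endothelial and 5 macrophage genes tested, 0 passed in limma (0, 0, 1 and 1 unadjusted), with medians of 0.019, -0.0059, 0.035 and -0.023. Cnn1 and Gli1 of the interstitial and myoid list were above background on 0 arrays. Hey1, a repressor gene induced by NOTCH, rose by 1.27 ± 0.15 (adjusted p = 0.00878 in limma), and Notch1 stood at 0.81 ± 0.19 (adjusted p = 0.162).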

How the data were processed

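Per the file headers, the deposited table holds the mean bead intensity of each probe on a linear scale, neither normalized nor background-subtracted. It also holds the deposited bead count per probe (median 41 to 42 per array), the deposited standard error of the bead signal, and the deposited detection p-value against the negative controls of the array. GenomeStudio 2010.3 was used, per the submitters' processing notes. The authors' processed intensity table equals those values times 1 factor per array (0.855 to 1.15), on a linear scale and not centred, with column medians of 105 to 113.3 in overexpressors and 108.1 to 117.5 in controls.

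The neqc function (offset 16) took the background from the detection p-values, applied quantile normalization and gave log2 intensities, in limma 3.58.1 under R 4.3.3. Probes with a detection p under 0.05 on at least 3 of 6 arrays were fitted with limma's two-sided moderated test on genotype, without a dam term, and adjusted over all 19889 such probes (Benjamini-Hochberg, 0.05). Each ± is an SE for a log2 fold change and an SD for a level. The procedure was tested on simulated data, drawn for each array without a litter effect, so that run does not cover the pairing by dam. The number of arrays limits the precision.

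Of 45281 probes 34885 have 1 annotated symbol, 18 have several and 10378 have none. All 66 keratin probes matched RefSeq's GRCm38.p6 gene table by Entrez identifier. That gene table gave names, chromosomes and gene order, and RefSeq's promoter table for the same build gave the promoter sequences and their coordinates. For lists, the brightest tested probe stood for a gene, and summed levels took the brightest of all probes of each gene. Every tested keratin probe is named, with the called members and the 3 lowest unadjusted p-values of each list of keratin-related genes. The members, lists and tests were chosen with earlier results of these data known. The dam number marks a shared litter, and littermates deviated together (correlations of 0.25, 0.43 and 0.30 for dams 1 to 3, against -0.28 to -0.014 in other pairs). Each group was centred on its own mean first. Positive values within litters then push the other pairs below 0, so those pairs are not a separate comparison. Alternatives were a dam block, other background, normalization, filter and variance settings, the authors' table, and each array left out.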

Additional observations from a re-analysis of the deposited data

How the results depend on the processing

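Among the keratins, Krt79 and ILMN_2877628 of Krt42 passed under all 14 alternatives, at log2 fold changes of 1.77 to 3.31 and -2.57 to -1.08. ILMN_2697643 of Krt42, with only a bound on its fold, was lower and passed under the 11 that tested it. Leaving out a control takes that probe below the filter. Krt17 kept its direction in all 14 (-2.86 to -1.66) and lost its call in 3, given above. The dam as a block (replicate block) changed no keratin call. With arrays left out in turn, 2 to 4 keratin probes were called, 1 higher each time and 1 to 3 lower, and over the whole array 28 to 90 probes, 23 to 61 higher and 5 to 29 lower. The whole array gave 157 with the dam as a block (64 lower), 175 with an offset of 50 (54 lower), 157 in the authors' table (51 lower), 67 with no filter (52 higher, 15 lower) and 210 with a trended prior (148 higher, 62 lower). With arrays left out, Krt10 ranged from -0.076 to 0.16, Krt15 from -0.31 to 0.17 and Krt18 from -0.27 to 0.089, and these 3 turned sign. No other tested keratin changed sign, and the cause was not tested. Signals near background limit Krt79 in controls and Krt42 in overexpressors.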
